A study of Mus musculus with 12 samples.

Results

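Of 117835 regions of open chromatin scored in macrophages from mouse brain tumours, 1682 carried a peak name from lipid-laden microglia (LL-MG) and from no other group. They were chosen by their identifiers alone, each of which must name an LL-MG peak and none from microglia without lipid load (MG), from monocyte-derived macrophages without lipid load (MDM) or from lipid-laden monocyte-derived macrophages (LL-MDM). All 1682 held an LL-MG name of the form peak and 0 held an LL-MG name of the form consensus. The names alone do not say what sets these forms apart, so they give no measure of how well the calls were reproduced. Since peak calls made the choice, the higher level of these regions in LL-MG is a description and is given without a test.

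Chromatin accessibility had been measured by ATAC-seq, in which the transposase Tn5 inserts sequencing adapters into DNA that is not covered by nucleosomes or other proteins. Nuclei came from cells sorted from brain tumours of genotype Ink4a/ArfKO, PDGFB, a glioma model in which PDGFB is expressed in Nestin-positive progenitors of animals without the Ink4a/Arf tumour suppressors. The 12 libraries fell into 4 groups of 3, and all 4 groups share the genotype and the tumour source. Each library is a bulk of nuclei from sorted cells.

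Microglia are the resident macrophages of the brain and enter it before birth, whereas MDM descend from blood monocytes that enter the tumour. Microglial identity depends on transcription factors such as Sall1, acting with the general macrophage factor PU.1 at distal enhancers. Macrophages that take up lipid, such as the debris of myelin, store it in droplets and export cholesterol through transporters such as Abca1 under the control of LXR and RXR nuclear receptors.

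The groups follow the column headings of the count table, which equal the sample descriptions. For 8 of the 12 libraries the sample title names another group, and for 4 it names the same one. The lineage given by the headings was checked at the loci of marker genes. Of 15 microglia loci, 5 (Sall1, P2ry12, Cx3cr1, Mef2c and Sall3) were higher in all 6 microglia libraries than in all 6 MDM and LL-MDM libraries. Of 14 monocyte-derived macrophage loci, 8 were lower in all 6 microglia libraries, among them H2-Aa and Itga4. The other loci did not split this way, and at Tmem119 LL-MDM was the highest group (70.7 to 84.2 CPM, against 44.8 to 59.7 in the microglia libraries). At Sall1 the summed level over 5 regions was 0.513 to 1.09 CPM (counts relative to the scaled library total) in MDM, 6.51 to 12.4 in LL-MDM, 47.9 to 77.8 in MG and 67.4 to 87.5 in LL-MG. The lipid state has no such check here. Nothing ties a library to a mouse without conflict, so p-values measure the spread between libraries, which may be technical. Total counts ran from 1162969 in LL-MDM 1 to 18938222 in MDM 2, and the 3 LL-MG libraries held 2150072 to 2764146. MG 2 and MG 3 stood apart from MG 1 on the second principal component, at -175 and -110 against -8.74. At the locus of Ccr2, a monocyte chemokine receptor, MG 2 and MG 3 also had 51.5 and 31.5 CPM against 10.7 in MG 1, 3.17 to 5.81 in LL-MG and 23.8 to 27.8 in MDM. Over the 14 monocyte-derived macrophage loci, both exceeded MG 1 at 7 and were both below it at 5, and over the 15 microglia loci they were both below MG 1 at 13.

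The regions were short and mostly far from gene starts. Their median width was 81 bp (quartiles 56 and 95, range 10 to 270), against 179 bp over all regions, 94 bp for the 6556 regions called in MG alone, 161 bp for the 2305 called in both microglia groups alone and 388 bp for the 32545 called in all 4 groups. Of the 1682, 1028 (61.1%) lay within the span of a protein-coding gene, close to the 59.6% of all regions. The span table gives no exons, so whether such a region is exonic or intronic is not known here. The median distance to the nearest listed transcription start was 19714.5 bp, against 14226.5 bp over all regions. Of the 1624 on chromosomes with listed starts, 58 (3.57%) touched the window from 250 bases before to 50 after a start, against 9.85% of all regions, 3.96% of those called in MG alone and 26.7% of those called in all 4 groups. None overlapped a microRNA hairpin (0 of 1682).

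Some lay close to another region, at a share near that of all regions. Within 200 bp of another region were 475 (28.2%), against 26.0% of all regions, and 985 (58.6%) were at least 1 kb from any other. The neighbour of those 475 was most often a region called in all 4 groups (102, 21.5%), in MG alone (89, 18.7%) or in LL-MG alone (78, 16.4%). Of all 117835 regions, 32545 were called in all 4 groups, 6556 in MG alone and 1682 (1.43%) in LL-MG alone. Regions called in MG alone or LL-MG alone thus made up more of these neighbours than of all regions, and those called in all 4 groups less. Neighbours of other regions were not counted this way. By chromosome, the share of the 1682 was 1.21 times that of all regions on chromosome 4 (124 regions) and 0.584 times on X (19 regions).

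The few regions that lie just before a listed start are the ones whose letters can be shown, and those printed lie outside the span of any protein-coding gene. They show 2 strongly open regions at long non-coding RNA starts beside Acod1 and Ninj1, 2 at gene starts rich in G and C, and 2 with a match to a searched motif. Sequences are from RefSeq (GRCm38.p6, the assembly of mm10), 5′ to 3′ on the strand of the named gene, and capitals mark a motif match.
4933432I03Rik, minus strand, chr14:103033919-103034014: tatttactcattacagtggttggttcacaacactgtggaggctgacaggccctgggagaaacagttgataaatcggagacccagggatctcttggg
Gm40943, minus strand, chr13:49183945-49184030: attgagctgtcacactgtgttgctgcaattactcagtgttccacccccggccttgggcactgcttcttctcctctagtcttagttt
Mb21d2, minus strand, chr16:28929773-28929853: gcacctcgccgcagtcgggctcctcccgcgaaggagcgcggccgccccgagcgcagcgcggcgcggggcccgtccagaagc
Lrp2, minus strand, chr2:69586091-69586171: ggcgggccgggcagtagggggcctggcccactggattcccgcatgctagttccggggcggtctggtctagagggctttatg
Tex19.1, plus strand, chr11:121146017-121146076: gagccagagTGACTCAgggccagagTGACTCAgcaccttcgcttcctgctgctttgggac
Gm32552, minus strand, chr10:117866767-117866918: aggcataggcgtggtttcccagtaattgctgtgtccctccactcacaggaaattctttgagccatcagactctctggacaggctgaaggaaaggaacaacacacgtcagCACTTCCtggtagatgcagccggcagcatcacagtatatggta

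The capitals in Tex19.1, a gene of germ cells and placenta, are the AP-1 letters TGANTCA, and those in Gm32552 are GGAAGTG, a core of ETS factors such as PU.1, read on the other strand. Before Mb21d2 the 81 bases held 81.5% G or C and 15 CpG pairs, and before Lrp2, which encodes the lipoprotein receptor megalin, the 81 bases held 67.9% and 5. The 96 bases before 4933432I03Rik held 49.0% G or C and 1 CpG, so the printed regions differ in base composition.

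Counted over whole windows of 300 bases, both strands, 63 windows touched one of the regions. AP-1 letters were in 7 of the 63 (11.1%), against 5.75% of the 13322 windows that touched any region and 7.81% of all 32817. GGAAGTG was in 3 (4.76%), against 15.6% and 11.0%. TTGCNNAA, of C/EBP factors, was in 4 (6.35%) against 8.27% and 10.8%. TCACGTG, the E-box of MiT/TFE factors, and ACAATGG, of SOX factors, were in 2 each (3.17%), against 6.19% and 1.88% of windows with any region. TGTGGTT, of RUNX factors, was in 1 (1.59%) against 4.13%. The longer NFI and IRF motifs were in 1 window each, and those of NF-kB, MEF2 and LXR in 0. Motifs were searched separately, so that matches to different motifs may overlap. The median window touching one of the regions held 16 CpG pairs, against 21 for windows with any region and 7 for all windows. The counts are small and describe the letters of these windows only.

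In LL-MG the regions were at the level of an average region, and in MDM far below it. The median level of the 1682 was 3.17, 2.82 and 2.90 CPM in LL-MG 1, 2 and 3, where the median over all 117835 regions was 2.71, 2.82 and 2.90. It was 1.85, 1.2 and 1.46 CPM in MG 1, 2 and 3. In LL-MDM it was 0.886, 0.974 and 0.685, and in MDM 0.365, 0.380 and 0.342. The 4 groups did not overlap in this median, and the order MDM, LL-MDM, MG, LL-MG held for every library.

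**Figure D1:**
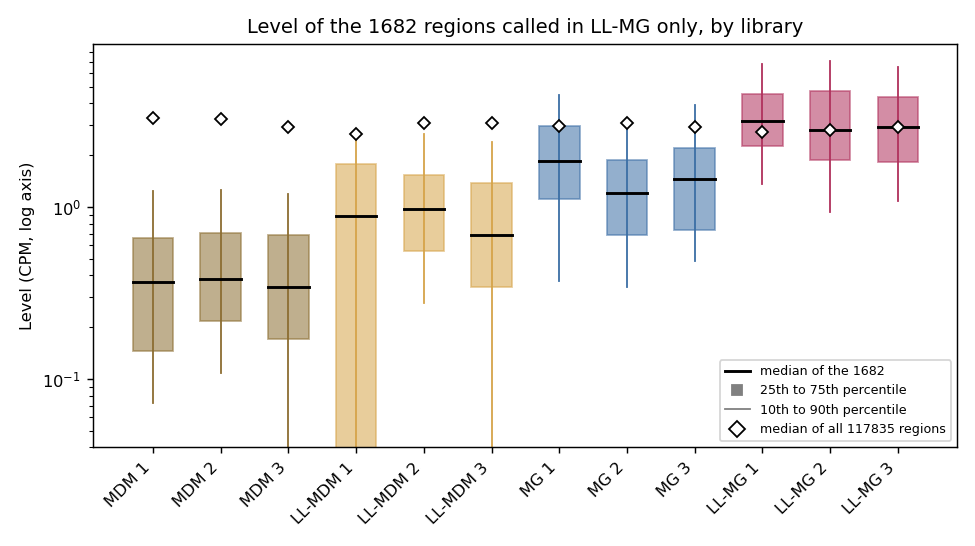
Levels of the 1682 regions in each of the 12 libraries (CPM, log axis), with the median as a black line, the middle range as a box, the 10th to 90th percentile as a line cut off at the axis where it reaches 0, and the median of all 117835 regions as a diamond. Medians climb from 0.342 to 0.380 CPM in MDM to 2.82 to 3.17 CPM in LL-MG, where they meet the median of all regions.

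Summed over the 1682, the level was 953 ± 72.3 CPM in MDM, 2014 ± 175 in LL-MDM, 3095 ± 602 in MG and 6054 ± 242 in LL-MG (SD, n = 3 each). The LL-MG sum was 6.36 times that of MDM, 3.01 times that of LL-MDM and 1.96 times that of MG. Against single MG libraries the ratio was 1.63 for MG 1, 2.42 for MG 2 and 1.97 for MG 3, so it was smallest against MG 1, which stood apart from MG 2 and MG 3. As a share of all counts, the regions took 0.576% to 0.610% in LL-MG, 0.213% to 0.364% in MG, 0.179% to 0.213% in LL-MDM and 0.0806% to 0.0987% in MDM. Fewer cells with an open region and a smaller opening per cell cannot be told apart in these bulk counts.

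The signal behind a single region was thin. The median count per region was 6 to 8 in the LL-MG libraries and 1 in LL-MDM 1, where 684 of the 1682 had no count. At least 1 count in all 3 LL-MG libraries was found for 1637 (97.3%). The highest of the 3 was LL-MG 2 for 641 regions, LL-MG 1 for 607 and LL-MG 3 for 434, so no single library carried the set.

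By group means, 1135 regions (67.5%) followed the order of the medians, from MDM through LL-MDM and MG to LL-MG. LL-MDM lay above MG in 355 (21.1%), and in 338 (20.1%) both lipid-laden means lay above both other means, most often in the order MDM, MG, LL-MDM, LL-MG (304). The MG mean reached or passed the LL-MG mean in 20 regions, the LL-MDM mean in 16 and the MDM mean in 2. An order with LL-MG at the top uses the contrast that chose the regions. The orders were not counted over all regions, so whether their shares are unusual is not known here. For 642 regions (38.2%) the lowest LL-MG library lay above the highest of the 9 others. Over all regions 3.95% did so, which is 4655, of which these 642 made up 13.8%; this count uses the contrast that chose the regions and is given without a test.

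Separation went with width. Among the narrowest (10 to 56 bp, 437 regions) 28.1% were without overlap and the median LL-MG level was 1.94 CPM, while among the widest (96 to 270 bp, 419 regions) 56.3% were and the level was 4.36 CPM. By position, 36.0% of the 475 within 200 bp of another region were without overlap, 45.9% of the 222 at 200 bp to 1 kb and 37.5% of the 985 at 1 kb or more. Within genes the share was 39.5%, and outside them 36.1%. These shares use the contrast that chose the regions, and none was counted over all regions of like width or position.

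The 12 strongest regions without overlap lay in or near genes of varied roles. The region with the highest LL-MG level, chr2:173266767-173266940, lies in Pmepa1, which encodes a membrane protein that dampens TGF-beta signalling. Its level was 27.6, 25.4 and 26.1 CPM in LL-MG, 18.2, 10.6 and 14.9 in MG, 11.5, 15.2 and 17.5 in LL-MDM and 5.40, 4.73 and 4.44 in MDM. MG and LL-MDM covered the same range there, while MDM was below and LL-MG above all others.

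A region 541 bp from Rpl10a, a ribosomal protein gene, had 22.2, 26.8 and 20 CPM in LL-MG and 15.6, 12.2 and 17.6 in MG. Hivep3 encodes a large zinc finger transcription factor, and its region chr4:119963151-119963281 had 20.8, 17.4 and 19.6 CPM in LL-MG. There MG had 10.7, 6.17 and 6.83, LL-MDM 9.75, 11.7 and 11.6 and MDM 3.65, 3.69 and 4.79, so LL-MDM overlapped MG. The region nearest to Zc3hc1, which encodes a protein of the nuclear pore basket, lies 6276 bp outside it and was split by lineage. It had 17.2, 19.7 and 13.4 CPM in LL-MG, 12.2, 6.35 and 4.88 in MG, 1.77, 2.36 and 1.71 in LL-MDM and 0.365, 0.109 and 0.513 in MDM.

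At Hspb7, a small heat shock protein gene, the LL-MG libraries were close together at 16.7, 16.5 and 16.7 CPM, with 11.1, 7.55 and 12.9 in MG. The region printed under 4933432I03Rik has as its nearest protein-coding gene Acod1, which encodes the enzyme that makes itaconate in activated macrophages, at 12998 bp. It had 16.7, 14.6 and 12.7 CPM in LL-MG, 8.90, 7.38 and 7.32 in MG, 6.20, 8.62 and 8.56 in LL-MDM and 3.58, 4.13 and 4.44 in MDM. MG and LL-MDM again overlapped. Regions called in all 4 groups lay 74 bp from this one, 105 bp from the Pmepa1 region and 103 bp from the Rpl10a region, and the part of these neighbours in the levels was not tested.

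The others of the 12 with the highest levels were near Exoc3l4 (mean 14.0 CPM in LL-MG, 6.02 in MG) and Basp1, a membrane protein of growing neurites (13.5 and 8.58). They were followed by regions in Fscn1, the actin-bundling fascin (12.9 and 7.49), Vps13d, a lipid transfer protein between organelles (12.8 and 7.53), Tg, thyroglobulin (12.7 and 7.62), and Clta, a clathrin light chain (12.6 and 7.82). Among these 12, the MDM mean was the lowest of the 4 in each. In Clta the gap was small, with 9.07 CPM in LL-MG 3 against 8.90 in MG 1.

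**Figure D2:**
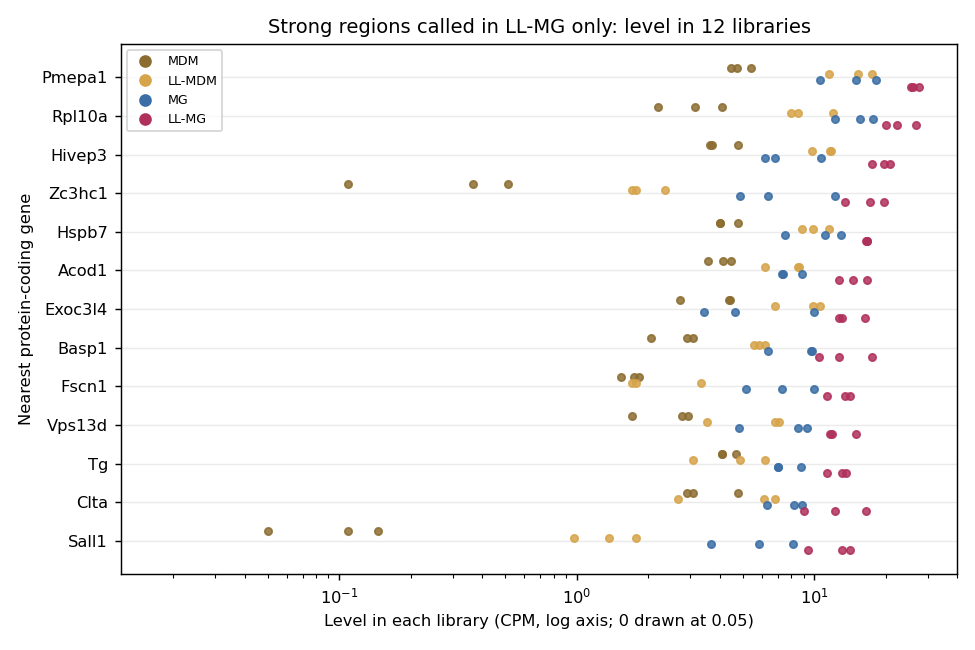
Level of 13 regions in the 12 libraries (CPM, log axis), 1 row per region named by its nearest protein-coding gene and 1 point per library, with a level of 0 drawn at 0.05. They are the 12 highest of the regions in LL-MG without overlap, and Sall1; the LL-MG points are the rightmost in every row, and the MDM points at Zc3hc1 and Sall1 are below 1 CPM.

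Several genes held many of the regions. Dlgap2, a scaffold gene of synapses, held 8 of the set among its 29 regions, which is the largest number in 1 gene. Their summed level was 32.1, 28.2 and 20.3 CPM in LL-MG, 15.2, 10.5 and 13.9 in MG, 3.54, 2.78 and 3.08 in LL-MDM and 1.39, 1.74 and 1.03 in MDM. The other 21 regions of Dlgap2 summed to 197, 200 and 204 CPM in LL-MG, against 169, 110 and 142 in MG and 25.8 to 30.5 in MDM, so the gene's remaining chromatin was also most open in the microglia libraries.

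Hivep3 held 5 among 56 regions, with summed levels of 46.6, 49.4 and 47.5 CPM in LL-MG and 23.0, 12.9 and 15.1 in MG. Capn3, a calpain gene, held 5 of 13, with 23.5, 16.9 and 19.2 CPM in LL-MG and 17.1, 5.49 and 8.29 in MG. Its other 8 regions had 29.4, 29.2 and 30.5 CPM in LL-MG and 38.6, 26.8 and 34.4 in MG, and the groups overlapped there. At Clta 4 of 6 regions belonged to the set. Their sum was 24.0, 30.6 and 15.6 CPM in LL-MG and 20.8, 13.2 and 10.5 in MG, while the remainder of the locus ran from 40.5 to 58.8 CPM over all 12 libraries.

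The tests given for these regions compare only the groups that had no call there. A region counted as past the test when its Benjamini-Hochberg adjusted p, over the 77737 regions that passed a filter on low counts, was under 0.05 in edgeR's quasi-likelihood test. Of the 1682, 649 (38.6%) passed that filter, against 66.0% of all regions. Their passing depended in part on LL-MG, where they are high, so counts over all 1682 without the filter are given beside them. The rule also asked for no call in the other groups, a call depends on depth, and the 2 deepest libraries were MDM 2 and MDM 1.

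Microglia without lipid load were already more open at these regions than MDM. Of the 649, 535 (82.4%) were higher in MG and 1 lower, against 26.8% higher and 24.9% lower over all tested regions, with a median log2 fold change of 1.87. Without the filter 1104 of the 1682 were higher and 2 lower, against 24.7% and 22.7% over all 117835. For the regions called in MG alone, whose rule used that contrast, 94.5% were higher, and for those called in both microglia groups alone 98.8%.

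Sall1, a transcription factor that sets microglial identity, had the clearest difference. Its region chr8:89044060-89044140 lies in the gene, 22 bp from a listed start, and is 81 bp wide. It had 13.1, 14.1 and 9.44 CPM in LL-MG, 8.16, 5.83 and 3.66 in MG, 1.77, 0.974 and 1.37 in LL-MDM and 0.146, 0.109 and 0 in MDM. No 2 groups overlapped. MG exceeded MDM by a log2 fold change of 5.49 ± 0.48 (SE; edgeR adjusted p = 2.86e-11), which rests on 2, 2 and 0 counts in MDM. LL-MDM exceeded MDM by 3.24 ± 0.71 (adjusted p = 0.00068, edgeR) and was below MG by a log2 fold change of -2.26 ± 0.43 (adjusted p = 0.000181, edgeR).

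At the Zc3hc1 region MG exceeded MDM by 4.68 ± 0.42 (log2, SE; edgeR adjusted p = 5.86e-11). At chr2:30265812-30265904, 299 bp from Phyhd1, MG had 7.78, 4.97 and 5.85 CPM against 0.365, 0.326 and 0.513 in MDM. The log2 fold change was 3.93 ± 0.36 (edgeR adjusted p = 7.66e-11). The single region lower in MG lies in Thbs1, which encodes the secreted matrix protein thrombospondin 1. It had 0.371, 0.515 and 1.95 CPM in MG and 3.29, 2.61 and 3.42 in MDM, a log2 fold change of -1.65 ± 0.45 (edgeR adjusted p = 0.00264). Its LL-MG level of 0.905, 2.82 and 1.45 CPM overlapped LL-MDM, at 1.77, 5.56 and 5.48 CPM, and had a lower mean than MDM and LL-MDM in spite of its name.

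Lipid-laden MDM were more open at these regions than MDM without lipid load. Of the 649, 282 (43.5%) were higher in LL-MDM and 0 lower, against 15.4% higher and 14.1% lower over all tested regions, with a median log2 fold change of 1.24. The share higher was 60.6% for regions called in both microglia groups alone and 26.5% for those called in MG alone. The shares lower were 0.0479% and 0.213%. For the 649, edgeR gave 375 higher and 0 lower at an unadjusted p under 0.05, and DESeq2 after adjustment gave 222 and 0. Without the filter 433 of the 1682 were higher and 0 lower, against 11.0% and 11.6% over all regions. With 1 library left out the share higher was above that of all regions in 12 of 12 fits. It was smallest without LL-MDM 2, the deepest library of its group, at 91 of 689 tested (13.2%) against 7.74% of all regions. It was 185 of 690 (26.8%, against 10.2%) without MDM 1 and 179 of 690 (25.9%, against 10.6%) without MDM 2. Without MG 1 it was 432 of 1200 (36.0%, against 16.7%), where more regions passed the filter. Sums over marker lists also differed between these groups. Around the microglia genes the sum was 771 to 806 CPM in MDM and 875 to 902 in LL-MDM. Around the monocyte-derived macrophage genes it was 1390 to 1460 and 779 to 834. Single loci went both ways within each list. Tmem119 had 29.1 to 37.1 CPM in MDM and 70.7 to 84.2 in LL-MDM, but Mef2c had 177 to 186 and 152 to 164. H2-Aa had 207 to 224 CPM in MDM and 48.3 to 61.1 in LL-MDM, but Lyz2 had 17.8 to 19.9 and 23.9 to 26.8. The part of these differences in the result was not tested.

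The Phyhd1 region had 3.54, 3.89 and 4.79 CPM in LL-MDM, a log2 fold change of 3.40 ± 0.40 over MDM (SE; edgeR adjusted p = 1.03e-07). Pmepa1 rose by 1.63 ± 0.21 (log2; edgeR adjusted p = 6.83e-07). In Niban2 the region had 3.54, 6.40 and 4.79 CPM in LL-MDM and 1.02, 0.706 and 1.37 in MDM, a log2 fold change of 2.52 ± 0.35 (edgeR adjusted p = 1.86e-06). MG, with 4.08, 1.89 and 3.90 CPM, overlapped LL-MDM at Niban2.

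LL-MDM and MG, the groups in the middle of the order, were also compared. Of the 649, 131 (20.2%) were lower in LL-MDM than in MG and 5 (0.77%) higher, against 12.9% lower and 14.0% higher over all tested regions, and the median log2 fold change was -0.69. Without the filter 187 of the 1682 were lower and 6 higher, against 12.3% and 9.8%; the share lower was then below that of all regions. The share lower depended on the libraries. With 1 library left out it was above that of all regions in 7 of 12 fits. It was 7.26% against 7.04% over all regions without LL-MDM 2 (52 calls in both directions), 6.39% against 8.15% without LL-MDM 3 (82 calls) and 12.6% against 10.6% without MG 3 (90 calls). For regions called in both microglia groups alone the share lower was 64.1%.

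Among those lower in LL-MDM was Papss1, which encodes an enzyme that makes the sulfate donor of the cell. Its region had 0, 0.974 and 0.342 CPM in LL-MDM and 8.90, 3.95 and 4.63 in MG, a log2 fold change of -2.92 ± 0.51 (edgeR adjusted p = 6.27e-05). LL-MG, with 8.60, 8.93 and 5.81 CPM, overlapped MG at Papss1. The region in Nfia, a transcription factor of the nuclear factor I family, had 0.886, 0.556 and 0.685 CPM in LL-MDM and 4.82, 4.97 and 3.41 in MG, a log2 fold change of -2.77 ± 0.54 (edgeR adjusted p = 0.000251). LL-MG had 5.43, 9.87 and 2.90 CPM there and also overlapped MG.

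The 5 higher in LL-MDM included regions at Thbs1, Ninj1 and Abca1. Ninj1 encodes a protein that ruptures the plasma membrane of dying cells, and its region, printed under Gm40943, lies 3499 bp away. Levels in LL-MG were 9.50, 14.6 and 12.7 CPM and those in LL-MDM 12.4, 11.8 and 8.56, while MG had 4.82, 4.12 and 3.90 and MDM 3.8, 5.05 and 5.30. Both lipid-laden groups lay above both groups without lipid load, and LL-MDM exceeded MG by 1.36 ± 0.27 (log2; edgeR adjusted p = 0.000329) and MDM by 1.22 ± 0.24 (edgeR adjusted p = 0.000173).

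Abca1, the cholesterol exporter, showed the same split by lipid state. Its region chr4:53081994-53082142 had 9.95, 7.52 and 6.53 CPM in LL-MG, 10.6, 5.42 and 7.88 in LL-MDM, 3.34, 2.92 and 0.976 in MG and 1.68, 1.09 and 1.2 in MDM. The nearest other region lies 24812 bp away. LL-MDM exceeded MDM by 2.39 ± 0.34 (log2; edgeR adjusted p = 2.43e-06) and MG by 1.56 ± 0.37 (edgeR adjusted p = 0.00201). Without MG 2 and MG 3 the second difference was 1.03 with an edgeR adjusted p of 0.176. At Thbs1 LL-MDM exceeded MG by 2.36 ± 0.47 (log2; edgeR adjusted p = 0.000322).

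**Figure D3:**
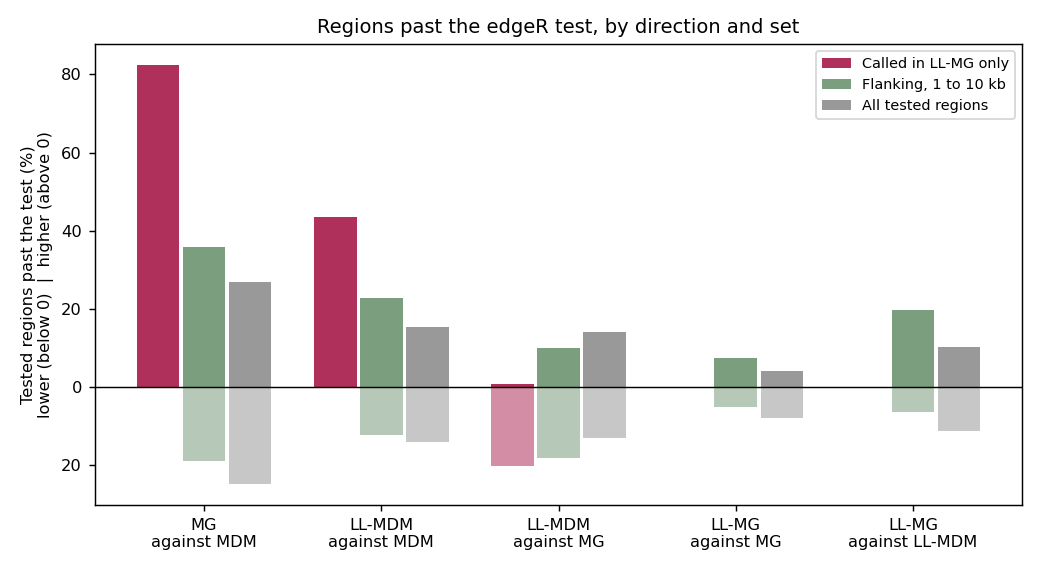
Share of tested regions past the edgeR test (percent), higher above the 0 line and lower below it in a paler shade, for the regions called in LL-MG only, other regions 1 to 10 kb from one of them, and all tested regions. In MG against MDM 82.4% of the first set were higher against 26.8% of all regions; the LL-MG contrasts are left out for the first set because its rule used them.

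Regions that the rule did not choose, but that lie near, bear on whether the wider loci differ. There were 2841 other regions at 1 to 10 kb from a region of the set, and 2089 of them were tested. Against LL-MDM, 409 (19.6%) were higher in LL-MG and 134 (6.41%) lower, against 10.3% and 11.2% over all tested regions, with a median log2 fold change of 0.21. Against MG, 158 (7.56%) were higher and 105 (5.03%) lower, against 4.21% and 8.01%, with a median of 0.15. The groups without lipid load differed in the same direction at these neighbours. In MG against MDM 35.9% were higher and 18.8% lower, against 26.8% and 24.9% over all tested regions.

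Among the neighbours called in all 4 groups, of which 824 were tested, 98 (11.9%) were higher in LL-MG than in MG and 40 (4.85%) lower, against 6.02% and 8.63% of all regions called in all 4 groups. Against LL-MDM 156 (18.9%) were higher and 37 (4.49%) lower, against 8.91% and 6.9%. The count against MG depended on single libraries. It was 263 in both directions, 617 without MG 1, 89 without MG 2, 175 without MG 3 and 108 to 119 without 1 of the LL-MG libraries. Without MG 2 and MG 3 it was 1, with 0.0125% higher and 0.0399% lower over the whole table. The count against LL-MDM was 543, and 356 without LL-MDM 2.

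The share of higher regions fell with distance from the set. Against MG it was 10.5% of 627 tested regions under 1 kb, 7.57% at 1 to 5 kb, 5.85% at 10 to 50 kb and 3.26% of 46064 at 200 kb or more, while the share lower went from 1.75% to 8.85%. Against LL-MDM the share higher was 41.5% under 1 kb, 20.1% at 1 to 5 kb and 7.7% at 200 kb or more. Fragments were selected between 150 and 700 bp, so regions under 1 kb may share fragments with the set.

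**Figure D4:**
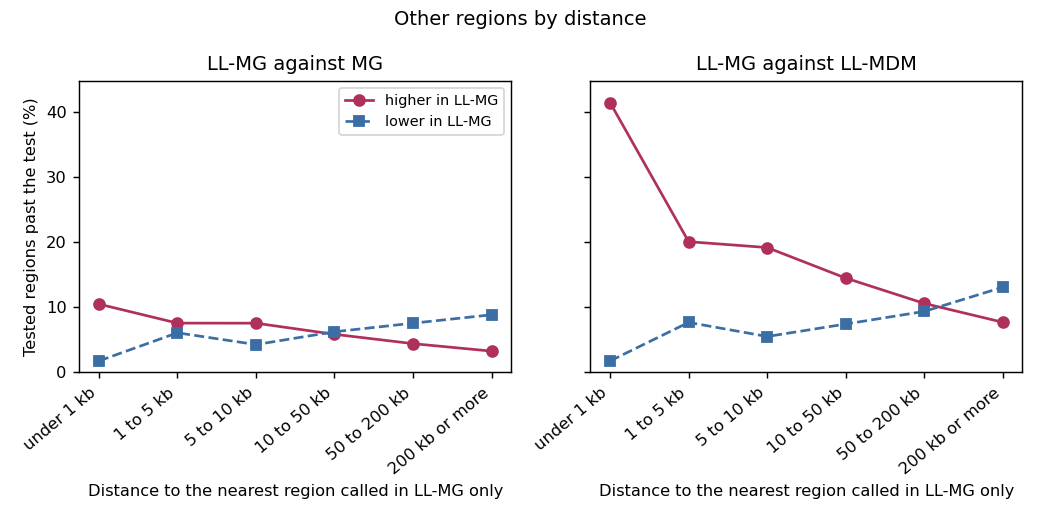
Share of other regions past the edgeR test (percent) by distance to the nearest region called in LL-MG only, for LL-MG against MG and against LL-MDM, higher as circles and lower as squares. In LL-MG against MG the share higher falls from 10.5% to 3.26% and the share lower climbs from 1.75% to 8.85%.

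Among these neighbours the smallest p against MG was at a region in Ifitm10, of the interferon-induced transmembrane family, with 34.8, 30.6 and 28.3 CPM in LL-MG and 14.5, 8.92 and 14.4 in MG. The log2 fold change was 1.35 ± 0.21 (SE; edgeR adjusted p = 0.000669), and MDM and LL-MDM lay between the 2 groups, at 13.8 to 26.6 CPM with some overlap with MG. The next were in Foxn3, a forkhead repressor (52.5, 57.4 and 36.7 CPM against 28.9, 14.4 and 13.9), and Phyhd1 (14.5, 20.7 and 17.4 against 9.27, 4.97 and 4.39). Their log2 fold changes were 1.42 ± 0.21 and 1.57 ± 0.26 (edgeR adjusted p = 0.000807 for both).

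Lower in LL-MG were neighbours in Kri1 (0, 1.41 and 1.45 CPM against 4.08, 18.5 and 11.0 in MG) and Ccdc63 (26.2, 26.3 and 30.5 against 36.3, 62.4 and 49.8). At both, MG 2 was the highest library. Without MG 2 and MG 3 the calls at Foxn3, Phyhd1, Kri1 and Ccdc63 were lost, with edgeR adjusted p from 0.142 to 0.657.

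Against LL-MDM the neighbours with the smallest p were in Cdk14, a cyclin-dependent kinase tied to Wnt signalling, in Gxylt1, which extends sugars on Notch, and in Tbc1d22a, a Rab GTPase-activating protein. At Cdk14 the level was 40.3, 30.1 and 30.1 CPM in LL-MG, 28.2, 20.2 and 28.0 in MG, 2.66, 5.84 and 4.45 in LL-MDM and 1.02, 0.489 and 1.03 in MDM, so the split was by lineage. The log2 fold changes over LL-MDM were 2.74 ± 0.26 at Cdk14, 3.26 ± 0.30 at Gxylt1 and 2.89 ± 0.29 at Tbc1d22a (SE; edgeR adjusted p = 2.73e-09, 4.93e-09 and 1.02e-08).

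Lower in LL-MG than in LL-MDM was a neighbour 4784 bp from Tmem119, a surface protein used to mark microglia, at chr5:113805180-113805737. It had 9.50, 10.8 and 10.9 CPM in LL-MG, 12.6, 17 and 17.1 in MG, 50.5, 33.2 and 42.5 in LL-MDM and 14.8, 12.1 and 17.9 in MDM. LL-MDM stood alone there, and the log2 fold change was -1.95 ± 0.22 (edgeR adjusted p = 7.08e-08). The Tmem119 locus also holds a region of the set, chr5:113800728-113800790, which had 7.24, 8.46 and 5.81 CPM in LL-MG and 5.56, 4.29 and 6.59 in MG, with overlap between them. A neighbour in Maml3, a Notch coactivator, had 3.62, 2.35 and 2.54 CPM in LL-MG and 15.9, 15.3 and 17.5 in LL-MDM (log2 fold change -2.51 ± 0.32; edgeR adjusted p = 6.79e-07). The other of the 3 lowest, chr9:88277081-88277333, has no protein-coding gene within 50 kb, and it had 2.26, 5.17 and 5.44 CPM in LL-MG and 20.4, 17.1 and 22.3 in LL-MDM (log2 fold change -2.16 ± 0.30; edgeR adjusted p = 2.14e-06).

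Gene lists for cell types and lipid pathways held few of the regions. Over all regions measured, 1.43% belonged to the set. In and within 5 kb of 15 microglia genes it was 4 of 111 regions (3.6%), among them those at Sall1, Tmem119 and Sparc, an extracellular matrix protein. Around monocyte-derived macrophage genes it was 0 of 82. The list of 20 transcription factors held 5 of 275 (1.82%), with regions at Cebpb and Runx1, factors of myeloid cells. At Runx1 2 regions had LL-MG levels of 5.43, 3.29 and 5.08 CPM and of 5.43, 4.23 and 2.54 CPM.

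Among the lipid lists, cholesterol efflux and LXR genes held 1 of 114 regions (Abca1), PPAR and fatty acid oxidation genes 1 of 115 (Rxra, the partner of LXR and PPAR receptors) and lysosome genes 1 of 120 (Mitf, a driver of lysosomal genes). Lipid uptake and storage genes held 0 of 151 and lipid-associated macrophage genes 0 of 113. The inflammation, interferon and hypoxia lists held 0 of 104, 0 of 59 and 0 of 69. At Mitf the level was 4.07, 5.64 and 4.35 CPM in LL-MG, 2.59, 0.343 and 2.44 in MG, 0.886, 2.36 and 2.05 in LL-MDM and 0.876, 0.869 and 0.684 in MDM. At Rxra LL-MG, with 5.43, 2.35 and 2.54 CPM, overlapped MG, with 1.85, 4.63 and 1.95. The immunosuppression list held 1 of 146, a region in Cdh23, whose span holds the listed gene Vsir. It had 5.88, 8.93 and 10.5 CPM in LL-MG, above 2.44 to 4.08 in MG.

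Lists of other cells moved with LL-MG in part. The summed level around 9 measured progenitor and PDGF glioma genes was 237 to 265 CPM in LL-MG, 174 to 238 in MG, 117 to 129 in LL-MDM and 102 to 117 in MDM. It was 257 to 273 CPM in LL-MG and 204 to 230 in MG around 6 astrocyte genes, and 228 to 249 and 170 to 197 around 8 neuron genes, and at Pdgfra, a defining gene of these progenitors, LL-MG had 13.6 to 17.1 CPM and MDM 11.2 to 13.3. Around 11 oligodendrocyte genes it was 417 to 446 in LL-MG and 444 to 501 in MG, and around 14 monocyte-derived macrophage genes 586 to 590 and 582 to 706. At Olig2, a defining gene of glioma progenitors, LL-MG had 2.82 to 3.62 CPM and MDM 5.54 to 6.72. The set itself held 1 region at Sox10, a glial lineage factor, with 3.17, 4.23 and 2.90 CPM in LL-MG and 1.85, 0.515 and 1.46 in MG. It also held 1 at Myrf, a myelin gene regulator, with 4.98, 1.41 and 4.72 CPM against 0.741, 0.686 and 0.976. At the B-cell gene Ms4a1 the region had 4.07, 4.23 and 2.54 CPM in LL-MG and 3.54, 2.92 and 3.77 in LL-MDM. The part of other cells in these levels was not tested.

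Regions at gene starts were at the level of the set. The 58 that touched a start window, 49 of them with bases before the start, had a median group mean of 2.80 CPM in LL-MG, 1.62 in MG, 0.825 in LL-MDM and 0.451 in MDM, against 2.91, 1.39, 0.828 and 0.371 for all 1682, and 19 of them (32.8%) were without overlap. The Mb21d2 region had 4.07, 2.82 and 4.72 CPM in LL-MG, 0.741, 1.54 and 2.68 in MG and 0.365, 0.380 and 0 in MDM, and MG exceeded MDM by 2.40 ± 0.59 (log2; edgeR adjusted p = 0.000878). The Gm32552 region had 10.4, 8.46 and 10.5 CPM in LL-MG, 6.30, 4.12 and 6.34 in MG, 1.77, 3.76 and 4.79 in LL-MDM and 1.97, 3.15 and 3.08 in MDM. The Tex19.1 region, with its pair of AP-1 matches, had 1.81, 4.70 and 1.09 CPM in LL-MG and overlapped MG.

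At the start of Gpr146, which encodes a G protein-coupled receptor, the region had 6.79, 5.17 and 7.26 CPM in LL-MG, 3.71, 1.89 and 4.15 in MG and 0.438, 0.706 and 1.03 in MDM (MG against MDM log2 2.17 ± 0.43; edgeR adjusted p = 8.37e-05). Slamf1, a receptor of immune cells, had 4.98, 4.70 and 4.35 CPM in LL-MG and 3.71, 0.343 and 2.20 in MG, and MG did not pass the test against MDM (log2 0.49 ± 0.49; edgeR adjusted p = 0.421). Ubl5, a ubiquitin-like protein gene that shares its start region with Fbxl12, has 2 of the set in its start windows, with means of 9.23 and 7.30 CPM in LL-MG. The letters of these 2 share a run of 20 bases, aggtggagctaagtataagc, and how reads that fit both were assigned is not given in the sources used here.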

How the data were processed

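The deposited table holds raw counts (whole numbers, not normalized) of 12 ATAC-seq libraries in 117835 regions. Per the labels' protocols, DNA was tagmented with Tn5, amplified in 9-cycle rounds and selected between 150 and 700 bp. The build was mm10; deepTools 3.5.1, Picard 2.12.0, SAMtools 1.10 and BWA 0.7.17-r1188 were listed, per the submitters' processing notes. No source used here gives the peak caller, duplicate handling or Tn5 shift, which can move counts at region edges. No column lacked a sample (0).

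Groups came from the descriptions, and replicates were numbered in accession order. Regions were filtered with filterByExpr (77737 left), scaled with TMM, and fitted in 1 model of the 4 groups with glmQLFit (robust) and glmQLFTest of edgeR 4.0.16 (R 4.3.3). CPM are counts over TMM-scaled totals. SEs came from the fold change and its F value. On simulated counts of MG against MDM over the 77737 regions, 17% of 2-fold and 92% of 4-fold changes were recovered, with 4 false calls. In that simulation 100 regions per fold were changed, the spread was fixed and the groups did not differ elsewhere. Far more regions passed this contrast in the data, so these shares do not give the recovery there. No 2 libraries were identical. Alternatives were size factors, total counts, DESeq2 1.42.0, no filter, thinning, groups by title, a block and left-out libraries.

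The regions and gene lists were chosen with earlier results of these data known. Named were the 12 highest without overlap, 1 per gene; up to 3 per direction by p in each contrast; and list members; 1 named neighbour is not reported here. Regions at gene starts were picked after their values were seen. Gene spans and sequences are RefSeq's (GRCm38.p6). Library numbers in runs of 4 did not pair the samples: correlations of deviations were -0.062 to 0.101 in 18 pairs of a run.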

Additional observations from a re-analysis of the deposited data

Results flagged for a closer look

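At 8 named neighbouring regions the lipid-load difference in microglia (LL-MG minus MG, log2) was not the same as in MDM (LL-MDM minus MDM), by the interaction term of the edgeR model. In microglia it was lower by a difference of -2.24 at Cdk14 (edgeR adjusted p = 0.00052), -2.2 at Gxylt1 (0.00542) and -2.53 at Tbc1d22a (0.000933). At these 3, LL-MDM exceeded MDM by log2 fold changes of 2.65, 2.95 and 3.18, while LL-MG differed from MG by 0.41, 0.74 and 0.65. The MDM counts were low, at 14, 9 and 6 for Cdk14, 5, 7 and 4 for Gxylt1 and 2, 9 and 4 for Tbc1d22a. At Tmem119 the difference was -2.06 (adjusted p = 3.7e-05, edgeR) and at Maml3 -1.33 (adjusted p = 0.0478, edgeR), where LL-MDM exceeded MDM by 1.46 and 1.1 and LL-MG against MG gave -0.60 and -0.23. At Kri1 it was -3.76 (adjusted p = 0.0116, edgeR). In the other direction it was 1.9 at Foxn3 (adjusted p = 0.000339, edgeR) and 0.87 at Ifitm10 (adjusted p = 0.0409, edgeR). The 8 regions were named for a small p in LL-MG against MG or LL-MDM. Both differences share values with the interaction term, so its p-values are no independent test.

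The values at Kri1 and Foxn3 go with MG 2 and MG 3, the libraries apart on the second principal component. MG 1 had 4.08 CPM at Kri1 against 18.5 and 11.0, and 28.9 CPM at Foxn3 against 14.4 and 13.9. Their part in these differences was not tested.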

How the results depend on the processing

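RLE factors and total counts changed no direction. The replicate block, on runs of 4 library numbers, gave 529, 280 and 125 of the regions for MG against MDM, LL-MDM against MDM and LL-MDM against MG, and 244 and 525 neighbours for LL-MG against MG and LL-MDM; it changed no call by more than 1.5 times. Without 1 library, these 5 counts ranged over 460 to 804, 91 to 432, 52 to 154, 89 to 617 and 356 to 668. The number of the regions tested then ran from 684 to 1220, and their share higher or lower from 61.8% to 78.0% (21.9% to 27.5% over all regions), 13.2% to 45.2% (7.74% to 18.9%) and, lower, 6.39% to 22.0% (7.04% to 16.7%). Without the filter the first 2 were 1106 and 433. Thinned to the smallest total, 49 regions could be tested and the first 3 counts were 29, 12 and 3 (2 higher, 1 lower, so the direction turned), and the neighbours gave 80 and 228. DESeq2 gave 173 neighbours against MG. Without MG 2 and MG 3, chosen after seeing the data, it was 1. With neighbours at 1 to 50 kb the counts were 1255 and 2340, and among those called in all 4 groups 138 and 193; more or fewer regions were tested there.

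Grouped by title, the first count was 0 (2 higher and 1 lower at an unadjusted p under 0.05) and the last 0 (8 and 8), and LL-MDM against MG gave 146, all higher. In the whole table MG against MDM then gave 0 in edgeR, with 119 higher and 64 lower at an unadjusted p; DESeq2 was not run on that grouping. Reversed, as log2 fold changes, were LL-MDM against MG at Papss1 (5.98, edgeR adjusted p = 0.00369), Sall1 (3.95, edgeR adjusted p = 0.0271) and Nfia (3.63, edgeR adjusted p = 0.00519). Also reversed, with an edgeR adjusted p of 0.244 to 1.0, were the same contrast at Thbs1 (-0.99), Ninj1 (-0.09) and Abca1 (-0.55), MG against MDM at Zc3hc1 (-0.74), and neighbours in LL-MG against MG at Kri1 (2.01) and against LL-MDM at Tbc1d22a (-0.22) and Maml3 (0.59). Another 14 named results kept their direction and lost their call under the titles, among them Sall1 in MG against MDM (0.53, edgeR adjusted p = 1.0). The cause was not tested. A set limited to consensus names was not run, since it has no region. Counts of 1 to 8 per region and library limit single regions.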
